A study of Mus musculus with 23 samples.

Results

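The chemokine ligands described here were 9 genes, *Ccl2*, *Ccl3*, *Ccl4*, *Ccl5*, *Ccl6*, *Ccl9*, *Ccl12*, *Cxcl2* and *Cxcl16*. They were chosen by name as CC and CXC chemokines of myeloid cells, and all 9 were among the 18876 genes in the count table of CD11b+ cells from mouse hippocampus. Every mouse carried *Slc11a2* fl/fl, a floxed form of the gene for the iron importer DMT1, and *Cx3cr1* Cre-ERT2 +/-, a Cre recombinase that tamoxifen activates in microglia and other *Cx3cr1*-expressing macrophages. Mice were hemizygous for the amyloid-producing *APP/PS1* transgenes or were WT littermates, all on a mixed 129S;C57BL/6J background, and the cells came from females. Slc11a2KD mice received tamoxifen by gavage, 4 mg a day for 5 days, at 5 to 6 months of age, and Control mice received corn oil. Hippocampi were taken at 15 to 18 months, digested with papain, and CD11b+ cells were selected on a magnetic column. Used here were 6 Control WT samples, 6 of 7 Control *APP/PS1* samples, and 5 samples each of Slc11a2KD WT and Slc11a2KD *APP/PS1*. The comparisons ask how the ligands differ between *APP/PS1* and WT mice, and whether the knockdown changes that.

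Chemokines are small secreted proteins that attract leukocytes by binding receptors coupled to G proteins on the cell surface. CC and CXC chemokines are named for the spacing of conserved cysteines, and most genes of the CC class lie in a cluster on mouse chromosome 11. In the brain, microglia and macrophages at its borders make several of them, and production rises when the cells sense injury or amyloid, in part through the transcription factor NF-kB.

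On the GRCm39 assembly with GENCODE M39 models, 8 of the genes lay on chromosome 11. *Ccl2* (chr11:81926397-81928279, plus strand) and *Ccl12* (chr11:81992645-81994466, plus strand) were near each other. Another stretch held *Ccl5* (chr11:83416602-83425942, minus strand), *Ccl9* (chr11:83463745-83473161, minus), *Ccl6* (chr11:83478708-83483913, minus), *Ccl3* (chr11:83538670-83540191, minus) and *Ccl4* (chr11:83553383-83555509, plus). *Cxcl16* (chr11:70344517-70352620, minus) lay outside the cluster, and *Cxcl2* (chr5:91051730-91053797, plus) was on chromosome 5. All 9 are protein-coding, with 3 to 5 exons in the canonical transcript. The coding sequences of *Ccl3* and *Ccl4* were 68.1% identical with at most 9 bases in a row shared, and those of *Ccl6* and *Ccl9* were 64.6% identical with at most 25 bases in a row shared.

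The 250 bases before the start of the canonical transcript are shown for 3 of the ligands that were higher in *APP/PS1* mice, *Ccl3*, *Cxcl2* and *Ccl6*, and for *Ccl4*, whose level followed *Ccl3* across samples. They run 5′ to 3′ on the gene's strand from GRCm39, and capitals mark matches on either strand to the kB motif, the site form that NF-kB binds, which was searched as a run of G, a purine, any base, A or T, then pyrimidines and a pair of C. The windows were *Ccl3* chr11:83540192-83540441 (minus), *Ccl4* chr11:83553133-83553382 (plus), *Cxcl2* chr5:91051480-91051729 (plus) and *Ccl6* chr11:83483914-83484163 (minus).
*Ccl3*: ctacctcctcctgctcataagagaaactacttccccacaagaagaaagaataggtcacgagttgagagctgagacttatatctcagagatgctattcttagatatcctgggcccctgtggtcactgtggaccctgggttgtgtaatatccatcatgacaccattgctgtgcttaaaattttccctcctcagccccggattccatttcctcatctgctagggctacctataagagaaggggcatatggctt
*Ccl4*: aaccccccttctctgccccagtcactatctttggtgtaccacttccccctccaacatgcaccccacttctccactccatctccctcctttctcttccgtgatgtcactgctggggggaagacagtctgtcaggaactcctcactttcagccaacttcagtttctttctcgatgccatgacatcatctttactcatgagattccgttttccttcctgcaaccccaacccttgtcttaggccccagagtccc
*Cxcl2*: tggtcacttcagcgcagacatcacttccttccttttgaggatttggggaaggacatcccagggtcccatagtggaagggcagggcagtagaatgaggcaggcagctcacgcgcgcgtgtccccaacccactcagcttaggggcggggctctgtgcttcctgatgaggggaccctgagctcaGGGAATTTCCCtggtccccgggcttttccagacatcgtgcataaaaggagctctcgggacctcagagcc
*Ccl6*: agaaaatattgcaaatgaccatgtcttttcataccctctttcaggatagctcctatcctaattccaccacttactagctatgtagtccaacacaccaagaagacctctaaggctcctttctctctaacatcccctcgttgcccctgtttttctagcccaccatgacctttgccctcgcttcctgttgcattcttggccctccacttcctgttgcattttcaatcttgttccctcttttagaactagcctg

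The kB motif was found in 3 of the 9 windows, those of *Ccl5*, *Ccl9* and *Cxcl2*, against 644 of 14341 protein-coding promoters of the same length (4.49%). To let the elements be compared, each is shown with 10 bases on either side, at chr11:83421415-83421444 for *Ccl5*, chr11:83469478-83469507 for *Ccl9* and chr5:91051651-91051680 for *Cxcl2*. In *Ccl5* and *Ccl9* the match is on the other strand. For these genes another annotated transcript begins farther upstream, so the windows before their canonical starts lie inside the gene spans given above. The *Cxcl2* element matches on both strands, shifted by 1 base.
*Ccl5*: tgtcttttgtGGAAACTCCCcaagtcctgg
*Ccl9*: tttgaactttGGAAAGCCCCaagtcacctt
*Cxcl2*: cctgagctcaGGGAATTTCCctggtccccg

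The other motifs searched on both strands were AP-1 (TGANTCA, 4.66% of promoters, found in *Ccl9*) and the TATA box (TATAAA, 7.64%, found in *Ccl5* and *Ccl9*). No match of one motif overlapped a match of another. None of the 3 motifs was in the windows of *Ccl3*, *Ccl4* or *Ccl6*. A match is a description of letters, and a window without one gives no information on the factor.

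Levels are CPM, the counts of a gene divided by the library total and brought to a common scale, with library sizes scaled by the TMM method over the 22 samples used. The totals ran from 31128643 to 54872491 counts, and every ligand had counts in every sample, from 39 for the lowest *Ccl5* value to 76686 for the highest *Ccl4* value. The 9 microglial markers measured (of 10 listed) summed to 28655 to 44833 CPM in each sample, and the *APP/PS1* sums (28655 to 36919 CPM) lay below those of every WT sample but Control WT 0015 (36891 CPM). *Slc11a2* was 29.6 to 43.3 CPM in Control WT, 39.6 to 47.8 in Control *APP/PS1*, 26.8 to 37.7 in the libraries labelled Slc11a2KD WT and 37.5 to 74.4 in those labelled Slc11a2KD *APP/PS1*. The gene total also counts exons outside the floxed part and so does not check the label. Control libraries were numbers 5 to 17 and Slc11a2KD libraries numbers 1 to 4 and 18 to 23, so the library run and the knockdown cannot be told apart. Choroid plexus markers summed to 1977 CPM in Control WT 0012, 1024 CPM in Control WT 0015 and 89.5 to 802 CPM in each Slc11a2KD library from 0018 to 0023, and did not pass 52.3 CPM in any other sample.

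**Figure D1:**
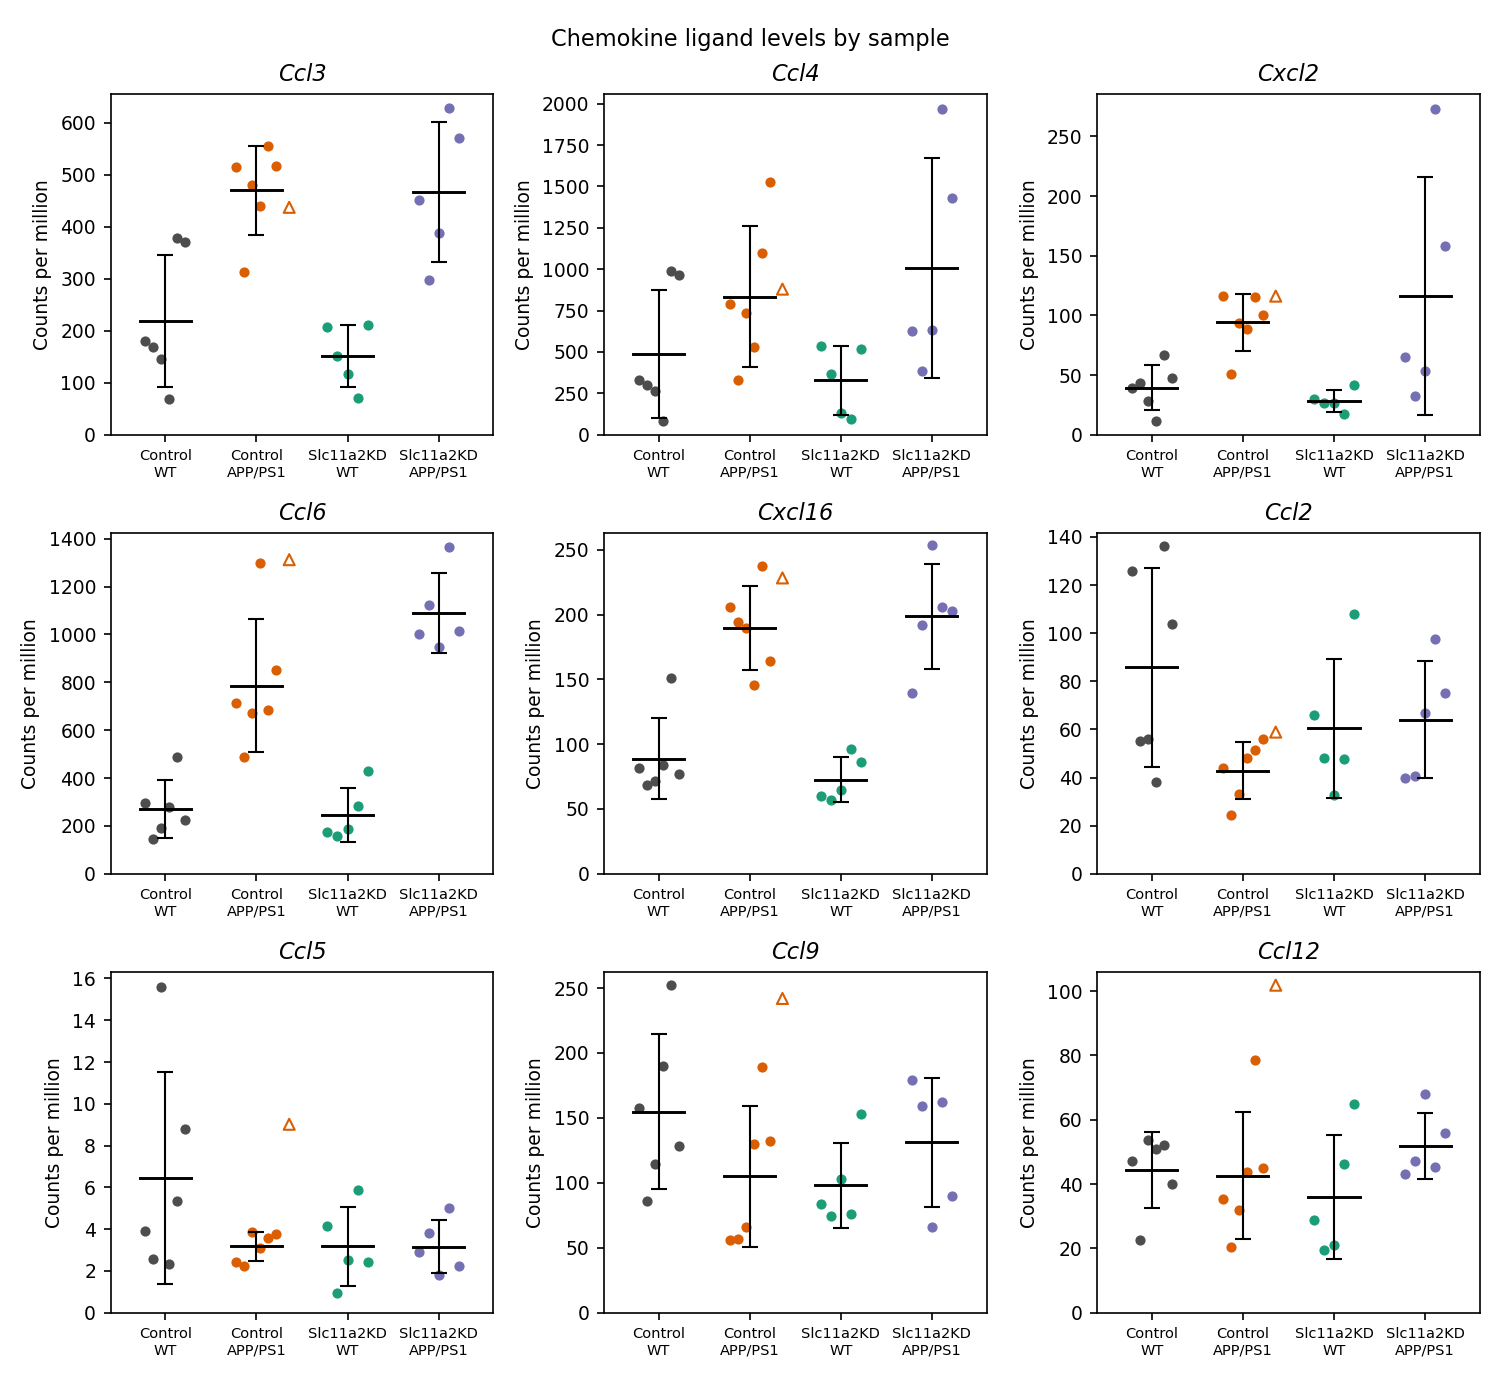
CPM of each ligand in each sample of the 4 groups, on linear axes from 0. Points are samples, black lines the mean ± SD, and the open triangle is Control *APP/PS1* 0010, which was left out. In the Slc11a2KD panels for *Ccl3*, *Ccl6* and *Cxcl16*, every *APP/PS1* sample lies above every WT sample.

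In Control mice, 4 ligands were higher and 1 was lower in *APP/PS1* than in WT cells. The 4 were *Ccl3*, *Ccl6*, *Cxcl2* and *Cxcl16*, by 2.13 to 2.91-fold, and *Ccl2* was 2.00-fold lower. Leaving out 1 Control sample at a time left 2 to 4 of these 5 calls, 2 without 0006 or 0016, with *Ccl6* and *Cxcl16* kept each time. Across the transcriptome, 10.5% of genes passed the adjusted p threshold of 0.05 in edgeR's quasi-likelihood test, 5.99% as higher and 4.48% as lower. The median log2 fold change was 0.77 over the ligands and -0.02 over all genes tested, and 5 of 9 ligands were above 0. In Slc11a2KD mice the same 4 ligands were higher, by 2.73 to 4.44-fold, and 0 were lower. There, 16.2% of genes passed, 9.77% as higher, and the ligand median was 1.45 against -0.07 for all genes, with 8 of 9 ligands above 0.

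**Figure D2:**
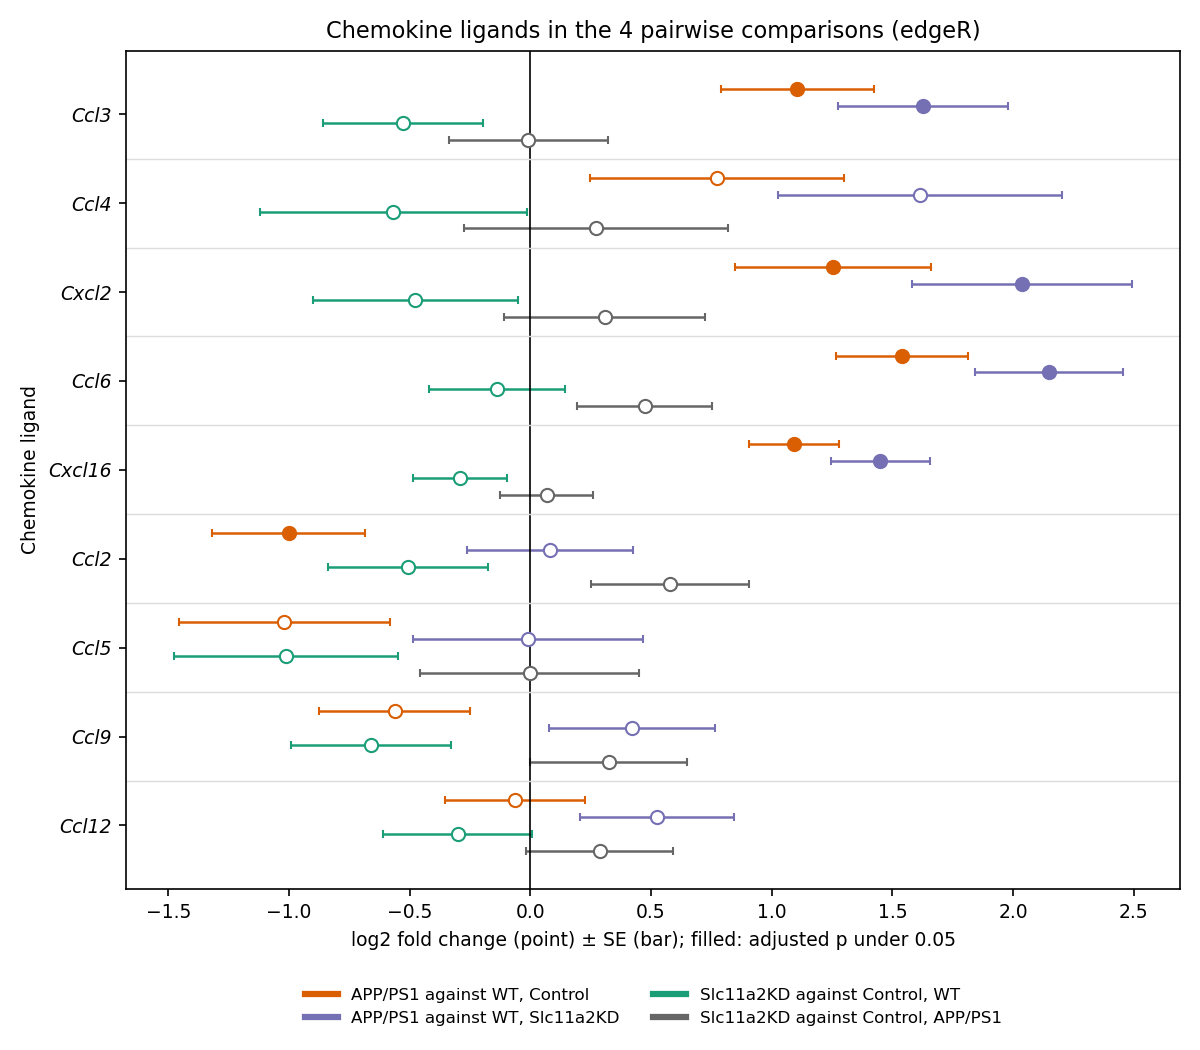
Log2 fold change ± SE of each ligand in 4 comparisons from the edgeR fit over 22 samples, with filled points for an adjusted p under 0.05. *Ccl3*, *Ccl6*, *Cxcl2* and *Cxcl16* are filled in both comparisons of *APP/PS1* with WT, *Ccl2* in the Control one, and no point is filled for the knockdown.

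*Ccl6*, a mouse CC chemokine that acts on the receptor *Ccr1*, was higher in *APP/PS1* mice in both comparisons of genotype. In Control WT it ran from 144 CPM through a median of 252 to 489, and in Control *APP/PS1* from 488 through 699 to 1300.0. The groups met at 1 pair of samples, Control WT 0014 (489 CPM) and Control *APP/PS1* 0007 (488 CPM). The means were 270.1 ± 121 CPM (SD, n = 6) in WT and 785 ± 278 CPM (SD, n = 6) in *APP/PS1*, a log2 fold change of 1.54 ± 0.27 (SE, adjusted p = 0.000416). In Slc11a2KD WT, *Ccl6* was 177, 156, 185, 282 and 429 CPM in libraries 0001, 0002, 0003, 0019 and 0022. In Slc11a2KD *APP/PS1* it was 1003, 1123, 946, 1364 and 1013 CPM in libraries 0004, 0018, 0020, 0021 and 0023. The lowest *APP/PS1* sample was above the highest WT sample. Group means were 246 ± 113 and 1089.7 ± 166 CPM (SD, n = 5 each), with a log2 fold change of 2.15 ± 0.31 (adjusted p = 3.57e-05).

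*Cxcl16* encodes a membrane-anchored chemokine that binds *Cxcr6*, takes up oxidised lipoprotein, and is released by the protease *Adam10*. It ran from 68.7 CPM through a median of 79.0 to 151 in Control WT, and from 146 through 192 to 238 in Control *APP/PS1*. Control WT 0014 at 151 CPM stood apart from the other WT samples, which did not pass 84.2 CPM, and it alone reached the *APP/PS1* range. The log2 fold change was 1.09 ± 0.19 (adjusted p = 0.000268), and 1.31 without 0014. The Slc11a2KD WT values were 59.8, 56.7, 65.0, 96.0 and 86.0 CPM, and in Slc11a2KD *APP/PS1* they were 139.7, 192, 253, 206 and 203 CPM, in the library order given for *Ccl6*. These groups did not overlap, and the log2 fold change was 1.45 ± 0.21 (adjusted p = 3.57e-05). *Adam10* was called lower in the Slc11a2KD comparison (log2 fold change -0.64, adjusted p = 0.0135) and not in the Control one (-0.31, adjusted p = 0.225). *Cxcr6* did not pass 0.79 CPM in any sample and had 0 counts in 13 libraries. *Med11*, which overlaps the *Cxcl16* locus, was also higher in the Slc11a2KD comparison (log2 fold change 0.67, adjusted p = 0.0441), and the strand on which reads were counted is not given in the sources used here.

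*Ccl3*, a ligand of *Ccr1*, ran from 68.5 CPM through a median of 174 to 378 in Control WT. In Control *APP/PS1* it ran from 313 through 497 to 555 CPM. Control WT 0014 (378 CPM) and 0015 (370.1 CPM) were above the lowest *APP/PS1* sample, 0007, and the other 4 WT samples were below it. The log2 fold change was 1.11 ± 0.32 (adjusted p = 0.0246). Without either 0006, 0008, 0009 or 0016 the call was lost, with adjusted p from 0.0509 to 0.0617. *Ccl3* in Slc11a2KD WT was 208, 152, 116, 70.6 and 210.3 CPM in the same library order, and in Slc11a2KD *APP/PS1* it was 451, 298, 387, 628 and 571 CPM. All *APP/PS1* samples were above all WT samples, and the log2 fold change was 1.63 ± 0.35 (adjusted p = 0.00279). The lncRNA *Gm53692*, annotated on the opposite strand of *Ccl3*, had medians of 3.89 and 20.4 CPM in Control WT and Control *APP/PS1*, and of 2.91 and 22.8 CPM in the matching Slc11a2KD groups. Its log2 fold changes were 2.65 (adjusted p = 6.17e-06) and 3.12 (adjusted p = 3.98e-06), and since the counting strand is not given, reads of this antisense gene and of *Ccl3* cannot be told apart where they overlap.

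*Ccl4*, a close relative of *Ccl3*, had the highest CPM of the 9 in 3 groups by mean and the widest spread within Control WT. It ran from 85.8 CPM through 314 to 987 in Control WT, and from 329.8 through 762 to 1525 in Control *APP/PS1*. Control WT 0014 (987 CPM) and 0015 (965 CPM) exceeded the Control *APP/PS1* median. The log2 fold change of 0.77 ± 0.53 did not pass the test (adjusted p = 0.412). Slc11a2KD WT samples had 535, 369.6, 129.7, 95.8 and 517 CPM. Slc11a2KD *APP/PS1* samples had 627, 384, 632, 1967 and 1431 CPM. Library 0018 (384 CPM) lay within the WT range, and the log2 fold change of 1.61 ± 0.59 did not pass (adjusted p = 0.0622). It passed without library 0004, 0018 or 0022 (adjusted p from 0.0390 to 0.0432) and in DESeq2's test (adjusted p = 0.0282).

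*Cxcl2*, a neutrophil attractant that binds *Cxcr2*, ran from 11.7 CPM through 41.2 to 67.1 in Control WT, and from 51.2 through 97.1 to 116 in Control *APP/PS1*. Control WT 0014 (67.1 CPM) was the single WT sample above the lowest *APP/PS1* sample. The log2 fold change was 1.25 ± 0.41 (adjusted p = 0.0491), just inside the threshold. The call was lost in 10 of the 12 fits that left out 1 Control sample, with adjusted p up to 0.101 and values from 1.06 to 1.32. *Cxcl2* in Slc11a2KD WT was 29.7, 26.4, 26.8, 17.2 and 42.01 CPM, and in Slc11a2KD *APP/PS1* it was 65.1, 32.8, 53.8, 273 and 159 CPM. Library 0018 (32.8 CPM) fell inside the WT range, while 0021 and 0023 were far above the rest. The log2 fold change was 2.04 ± 0.45 (adjusted p = 0.00355), and 1.44 without 0021. Neutrophil markers summed to 78.4 to 303 CPM in Control WT and 23.3 to 91.7 CPM in Control *APP/PS1*, with 0 of 8 called higher and 3 lower. Their sums in Slc11a2KD mice were 89.5 to 473 CPM in WT and 41.1 to 141 CPM in *APP/PS1*, with 0 called higher and 1 lower. The part of neutrophils in the *Cxcl2* levels was not tested.

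*Ccl2*, the ligand of *Ccr2* that draws monocytes, was the 1 ligand called lower in a genotype comparison. It ran from 38.0 CPM through 79.8 to 136 in Control WT, and from 24.6 through 46.0 to 55.9 in Control *APP/PS1*. The groups overlapped, as Control WT 0008 (55.1 CPM) and 0012 (38.0 CPM) lay within the *APP/PS1* range and 0009 (55.9 CPM) was at its upper end. The log2 fold change was -1.001 ± 0.32 (adjusted p = 0.0433). The call was lost in 8 of 12 fits that left out 1 Control sample, with adjusted p up to 0.110 and values from -1.06 to -0.82. In Slc11a2KD WT it was 65.8, 48.1, 32.8, 47.6 and 107.9 CPM, and in Slc11a2KD *APP/PS1* 39.9, 40.8, 66.8, 97.4 and 75.0 CPM. The ranges overlapped nearly in full and the log2 fold change was 0.08 ± 0.34 (adjusted p = 0.910). Markers of border-associated macrophages summed to 450.4 to 942 CPM in Control WT and 200.3 to 413 CPM in Control *APP/PS1*, with 6 of 8 called lower and 0 higher, and markers of monocytes to 40.7 to 92.8 and 15.4 to 39.1 CPM, with 2 of 6 called lower. In the Slc11a2KD comparison 4 of 8 border-associated macrophage markers and 0 of 6 monocyte markers were called lower. Their part in the *Ccl2* result was not tested, and in bulk samples fewer cells of a type and less RNA per cell cannot be told apart.

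*Ccl12*, another ligand of mouse *Ccr2*, did not pass the test in either genotype comparison. It ran from 22.6 through 49.1 to 53.8 CPM in Control WT and from 20.5 through 39.6 to 78.5 CPM in Control *APP/PS1* (log2 fold change -0.06 ± 0.29, adjusted p = 0.938). Slc11a2KD WT samples had 29.0, 19.4, 20.95, 46.1 and 65.0 CPM, and Slc11a2KD *APP/PS1* samples 43.0, 47.2, 68.2, 45.3 and 56.0 CPM (log2 fold change 0.53 ± 0.32, adjusted p = 0.275). Among these 10 samples the lowest were libraries 0001, 0002 and 0003. *Ccl9*, which like *Ccl6* acts on *Ccr1*, ran from 86.3 through 143 to 253 CPM in Control WT and from 55.8 through 97.9 to 189 CPM in Control *APP/PS1* (log2 fold change -0.56 ± 0.31, adjusted p = 0.288). It was 83.5, 74.9, 102.8, 76.1 and 153 CPM in Slc11a2KD WT and 179, 159, 66.4, 162 and 90.1 CPM in Slc11a2KD *APP/PS1* (log2 fold change 0.42 ± 0.34, adjusted p = 0.440). The groups overlapped in each case.

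*Ccl5*, a ligand of *Ccr1* that T and NK cells also make, was the lowest of the 9. It ran from 2.33 through 4.64 to 15.6 CPM in Control WT and from 2.23 through 3.34 to 3.88 CPM in Control *APP/PS1*, where the log2 fold change was -1.02 ± 0.44 (adjusted p = 0.146). Control WT 0009 (15.6 CPM) and 0015 (8.80 CPM) were above the other WT samples, and without 0009 the log2 fold change was -0.53 (adjusted p = 0.496). Markers of T and NK cells were also highest in Control WT 0009, where their sum was 40.8 CPM, against 8.82 to 40.8 CPM over Control WT and 3.57 to 14.3 CPM over Control *APP/PS1*, and 2 of the 10 measured were called lower. Over all samples, the within-group correlation of *Ccl5* with these markers was 0.24 (permutation p adjusted over 90 pairs = 0.725). Slc11a2KD WT samples had 4.17, 0.93, 2.52, 5.88 and 2.43 CPM and Slc11a2KD *APP/PS1* samples 2.90, 3.83, 1.83, 5.00 and 2.25 CPM (log2 fold change -0.01 ± 0.48, adjusted p = 0.997). The 95% interval of the last difference, -0.99 to 0.97, shows how little can be said of *Ccl5* at this depth and spread.

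In the same test, no ligand passed for the knockdown in either genotype. For Slc11a2KD WT against Control WT, 0 of the 18759 genes passed (0%) and 5.92% had an unadjusted p under 0.05, among them 1 ligand, *Ccl5* (log2 fold change -1.01 ± 0.46, adjusted p = 0.787), which was -0.53 without Control WT 0009 and ran down to -1.37 with another sample left out. All 9 fold changes were below 0, from -0.14 ± 0.28 for *Ccl6* to the *Ccl5* value, with a median of -0.51 against 0.01 for all genes. Without Control WT 0014 the *Ccl6* value was 0.12, and no other ligand changed sign under the alternatives run. The groups overlapped for each ligand. DESeq2 called 10 genes there and 0 ligands. For Slc11a2KD *APP/PS1* against Control *APP/PS1*, again 0 genes passed (0%), 20.6% had an unadjusted p under 0.05, and 0 of the 9 ligands were among them. DESeq2 called 580 genes and 0 ligands, and edgeR without library 0004 called 3069 genes and 0 ligands. The ligands ran from -0.01 ± 0.33 for *Ccl3* to 0.58 ± 0.33 for *Ccl2* (adjusted p = 0.315), with 7 of 9 above 0. These directions were not stable, since with a term for libraries 18 to 23 the values of *Ccl2*, *Ccl6*, *Cxcl2*, *Ccl12* and *Cxcl16* were -0.03, -0.05, -0.08, -0.40 and -0.43, and with voom those of *Ccl4* and *Cxcl2* were -0.04 and -0.52. For *Cxcl16* the 95% interval of the difference was -0.33 to 0.47 on the log2 scale, which does not hold the value with that term.

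The interaction asks whether the difference between *APP/PS1* and WT is larger with the knockdown. It was above 0 for all 9 ligands, from 0.36 ± 0.27 for *Cxcl16* to 1.08 ± 0.47 for *Ccl2*, and 0 passed (0% of all genes). The median was 0.78 over the ligands and -0.01 over all genes. Of 19 other chemokine ligands measured, 16 were also above 0, with a median of 0.69. *Ccl2* and *Ccl9* (0.98 ± 0.46) were the 2 ligands with an unadjusted p under 0.05, as were 9.08% of all genes, and their adjusted p was 0.544 in both cases. *Ccl2* was called lower in Control mice and was 0.08 in Slc11a2KD mice, but this test did not show the 2 values to differ. DESeq2 called 25 genes for the interaction and 0 ligands, and limma's voom fit turned the sign for *Cxcl2* to -0.21.

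The Slc11a2KD libraries came in 2 runs of numbers, 1 to 4 and 18 to 23, and some ligands differed between them. In Slc11a2KD WT, *Ccl12* was 23.1 ± 5.2 CPM (SD, n = 3) in the first run and 55.6 ± 13.4 CPM (SD, n = 2) in the second, a log2 difference of 1.27 ± 0.38 (adjusted p = 0.0320), where 11.7% of genes passed. *Ccl6* was 173 ± 15.2 and 355 ± 104.3 CPM (log2 difference 1.04 ± 0.36, adjusted p = 0.0650). *Cxcl16* was 60.5 ± 4.2 and 91.0 ± 7.1 CPM (0.59 ± 0.25, adjusted p = 0.124). The calls were the other way round when the runs were compared over both genotypes, where 4320 of the 18759 genes passed (23%). There *Cxcl16* was higher in the second run by 0.60 ± 0.20 (adjusted p = 0.0345), and *Ccl12*, at 0.80 ± 0.31, did not pass (adjusted p = 0.0718). Choroid plexus markers moved with the runs in Slc11a2KD WT, with sums of 52.3, 10.6 and 11.2 CPM in libraries 0001, 0002 and 0003 and of 802 and 450.1 CPM in 0019 and 0022. Within groups, over 22 samples, *Ccl12* had r = 0.42 and rho = 0.52 with these markers (adjusted permutation p = 0.211 and 0.126), and their part in the differences between runs was not tested. In Slc11a2KD *APP/PS1* the first run held only library 0004. Within the second run alone, with 2 WT and 4 *APP/PS1* samples, the log2 fold change of *APP/PS1* against WT was 1.65 ± 0.38 for *Ccl6* (adjusted p = 0.0117) and 1.23 ± 0.25 for *Cxcl16* (adjusted p = 0.00454), and 5.09% of genes passed. *Ccl3* and *Cxcl2* had values of 1.75 ± 0.52 and 2.13 ± 0.66 but did not pass (adjusted p = 0.0553 and 0.0664).

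The separation of the groups was read sample by sample. Between Control WT and Control *APP/PS1*, 0 of the 9 ligands were free of overlap, and 5.33% of all genes lay wholly higher in *APP/PS1*. Without Control WT 0014, *Ccl6*, *Cxcl2* and *Cxcl16* lay wholly higher, as did 6.81% of all genes. Between WT and *APP/PS1* in Slc11a2KD mice, *Ccl3*, *Ccl6* and *Cxcl16* lay wholly higher, as did 4.18% of all genes. Control WT 0014 was the highest sample of its group in 7 of the 9 ligands, and Control *APP/PS1* 0007 the lowest of its group in 7. Library 0014 also had the highest sums of neutrophil markers (303 CPM) and monocyte markers (92.8 CPM) in Control WT, and the part of these in its levels was not tested.

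Compared per length of the canonical transcript, *Ccl4*, *Ccl3* and *Ccl6* were the 3 highest ligands in each group. In Control WT the order was *Ccl4* at 710.5 ± 564 CPM per kb, *Ccl3* at 281 ± 163, *Ccl6* at 188 ± 84.0, *Ccl2* at 106 ± 51.0, *Ccl12* at 55.4 ± 14.7, *Ccl9* at 51.4 ± 19.9, *Cxcl2* at 35.6 ± 16.9, *Cxcl16* at 29.7 ± 10.4 and *Ccl5* at 12.0 ± 9.5 (SD, n = 6). No 2 neighbours in this order were separated by their mean ± SD. In Control *APP/PS1* the first 3 were 1214, 605 and 545 CPM per kb and stood apart from *Cxcl2* at 84.8, which had moved up to the fourth place, and *Ccl5* stood apart below the rest at 5.9. In Slc11a2KD WT, *Ccl5* (6.0 CPM per kb) was the only one separated from its neighbour, *Cxcl16* (24.3). In Slc11a2KD *APP/PS1*, *Ccl6* (757) lay between *Ccl4* (1468) and *Ccl3* (602), and these again stood apart from *Cxcl2* (105). *Cxcl2*, *Cxcl16*, *Ccl12*, *Ccl2* and *Ccl9* were not separated from their neighbours among them in any group.

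**Figure D3:**
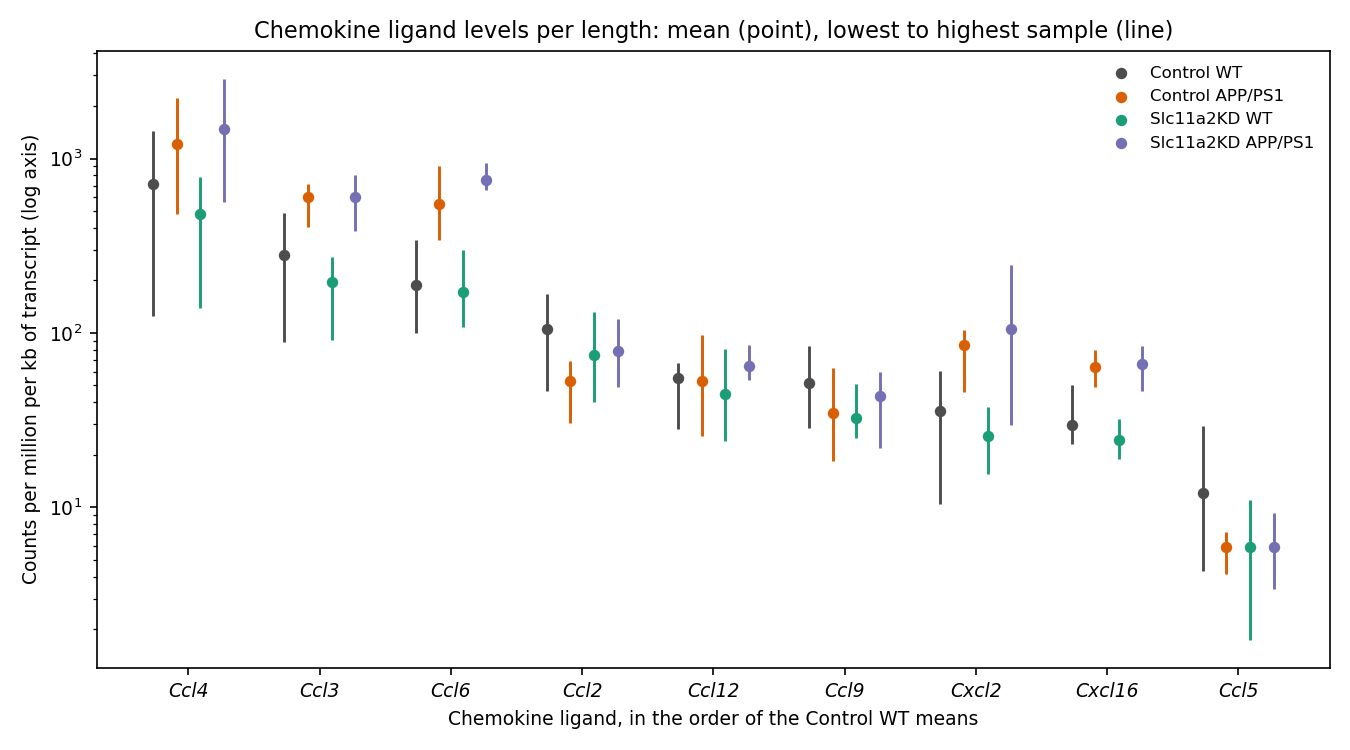
Mean CPM per kb of canonical transcript of each ligand in the 4 groups, on a log axis, with lines from the lowest to the highest sample. *Ccl4*, *Ccl3* and *Ccl6* are the 3 highest in each group and *Ccl5* the lowest.

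The 9 ligands together summed to 1397 ± 695 CPM in Control WT, 2566 ± 659 in Control *APP/PS1* (SD, n = 6 each), 1025 ± 384 in Slc11a2KD WT and 3131 ± 1039.6 in Slc11a2KD *APP/PS1* (SD, n = 5 each). *Ccl4* made up 10.6% to 49.1% of the sum in Control WT and 16.9% to 41.4% in Slc11a2KD *APP/PS1*, so the make-up varied widely within a group. *Ccl6* made up 11.4% to 34.4% and 28.1% to 49.2% in these groups.

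Within groups, over the samples used, the pairs of ligands that varied together beyond the threshold were those among *Ccl2*, *Ccl3*, *Ccl4* and *Cxcl2*, and *Ccl6* with *Ccl9*. Each sample's log2 CPM was taken as its deviation from its group mean, over 22 samples, and tested with 100000 permutations within groups, adjusted over 90 pairs of ligands and lists. All 36 pairs of ligands had r above 0, from 0.08 to 0.95 with a median of 0.23, and 7 pairs had an adjusted p under 0.05. *Ccl3* and *Ccl4*, neighbours on chromosome 11, had r = 0.95 and rho = 0.96 (permutation p = 1e-05 for each, the smallest the permutations can give, adjusted 0.0003), and r = 0.94 without libraries 0012 and 0019, the 2 farthest from the median. *Cxcl2*, on another chromosome, had r = 0.84 and rho = 0.85 with *Ccl4* (permutation p = 1e-05, adjusted 0.0003), and 0.77 without 0012 and 0014. *Ccl2* had r = 0.81 and rho = 0.81 with *Ccl4* (permutation p = 9e-05 and 7e-05, adjusted 0.00135 and 0.00105), and 0.75 without 0003 and 0012. The pairs of *Ccl2* with *Ccl3* and *Cxcl2*, and of *Ccl3* with *Cxcl2*, had r of 0.77, 0.75 and 0.82.

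**Figure D4:**
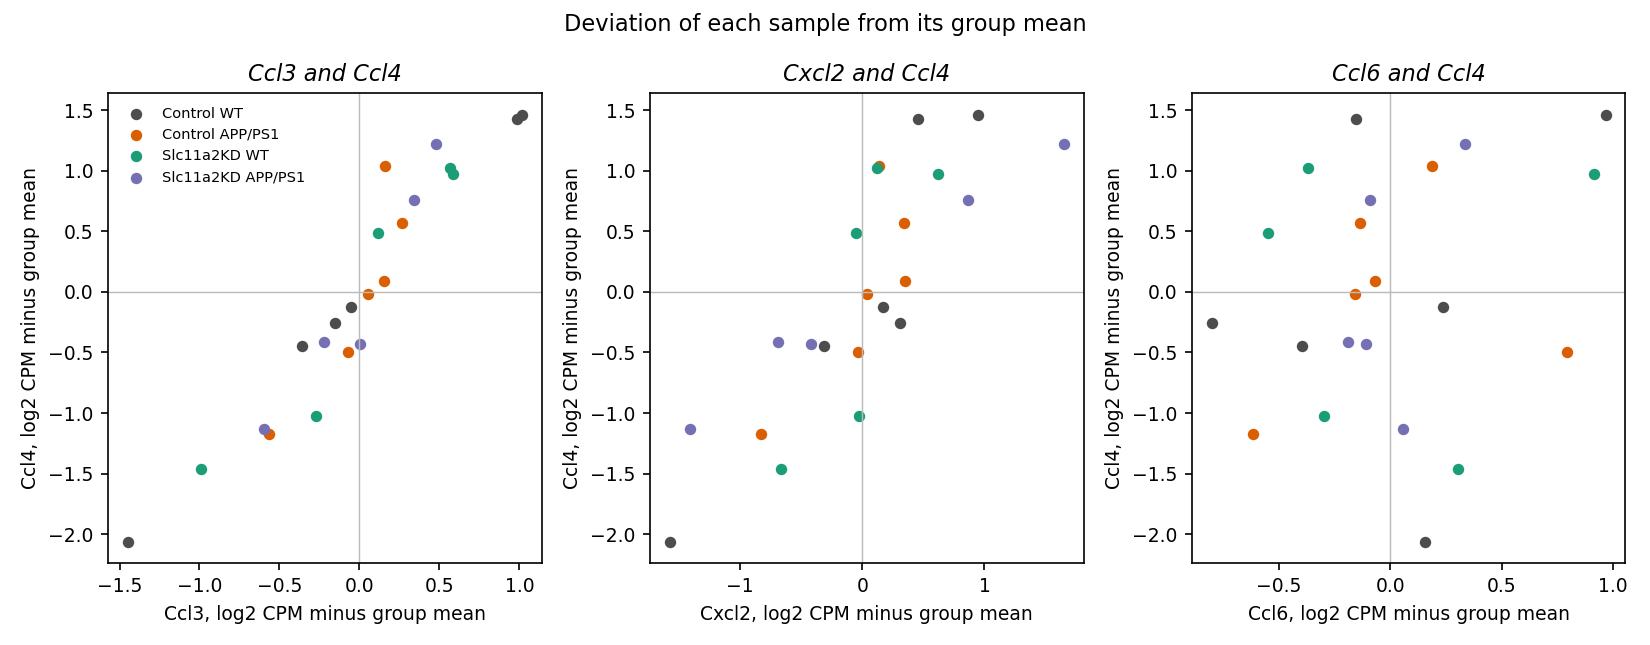
Deviations of log2 CPM from the group mean, 1 point per sample (22), for *Ccl3*, *Cxcl2* and *Ccl6* against *Ccl4*. *Ccl3* and *Cxcl2* follow *Ccl4* (r = 0.95 and 0.84), and *Ccl6* does not form such a line.

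*Ccl6* and *Ccl9* formed another pair, with r = 0.65 and rho = 0.64 (permutation p = 0.00077 and 0.00154, adjusted 0.00578 and 0.0116), and 0.54 without 0014 and 0022. When the Slc11a2KD samples were also centred within their runs of library numbers (21 samples), these pairs kept r of 0.96 for *Ccl3* with *Ccl4*, 0.84 for *Ccl4* with *Cxcl2*, 0.88 for *Ccl2* with *Ccl4* and 0.72 for *Ccl6* with *Ccl9*. With Control *APP/PS1* 0010 kept (23 samples), 4 more pairs passed, *Ccl2* with *Ccl6* (r = 0.61, adjusted permutation p = 0.0352) and with *Ccl12* (0.53, 0.0499), and *Ccl12* with *Ccl6* (0.68, 0.0158) and with *Ccl9* (0.61, 0.0309), so the division into sets depends on that library. The mean log2 CPM of the NF-kB list, which holds regulators of the pathway and its targets *Tnf*, *Il1a* and *Il1b*, had r = 0.84 with *Ccl4*, 0.82 with *Ccl3* and 0.68 with *Cxcl2*, each with an adjusted permutation p of 0.00368 or lower. That of the early response list, genes such as *Ier2* and *Ier3* that cells switch on within minutes of a stimulus or of tissue digestion, had r = 0.76 with *Ccl4*, 0.75 with *Ccl3* and 0.60 with *Cxcl2* (adjusted permutation p up to 0.0251). For *Cxcl2*, rho was 0.51 and did not pass (adjusted permutation p = 0.120), and r was 0.49 without 0012 and 0021. *Ccl2* had r = 0.48 with the NF-kB list and 0.32 with the early response list (adjusted permutation p = 0.188 and 0.562), and passed with both, at 0.75 and 0.66, when the runs were centred (0.00498 and 0.0316). *Ccl6* had r = -0.11 with the NF-kB list and -0.26 with the early response list. The part of the isolation in these levels was not tested.

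**Figure D5:**
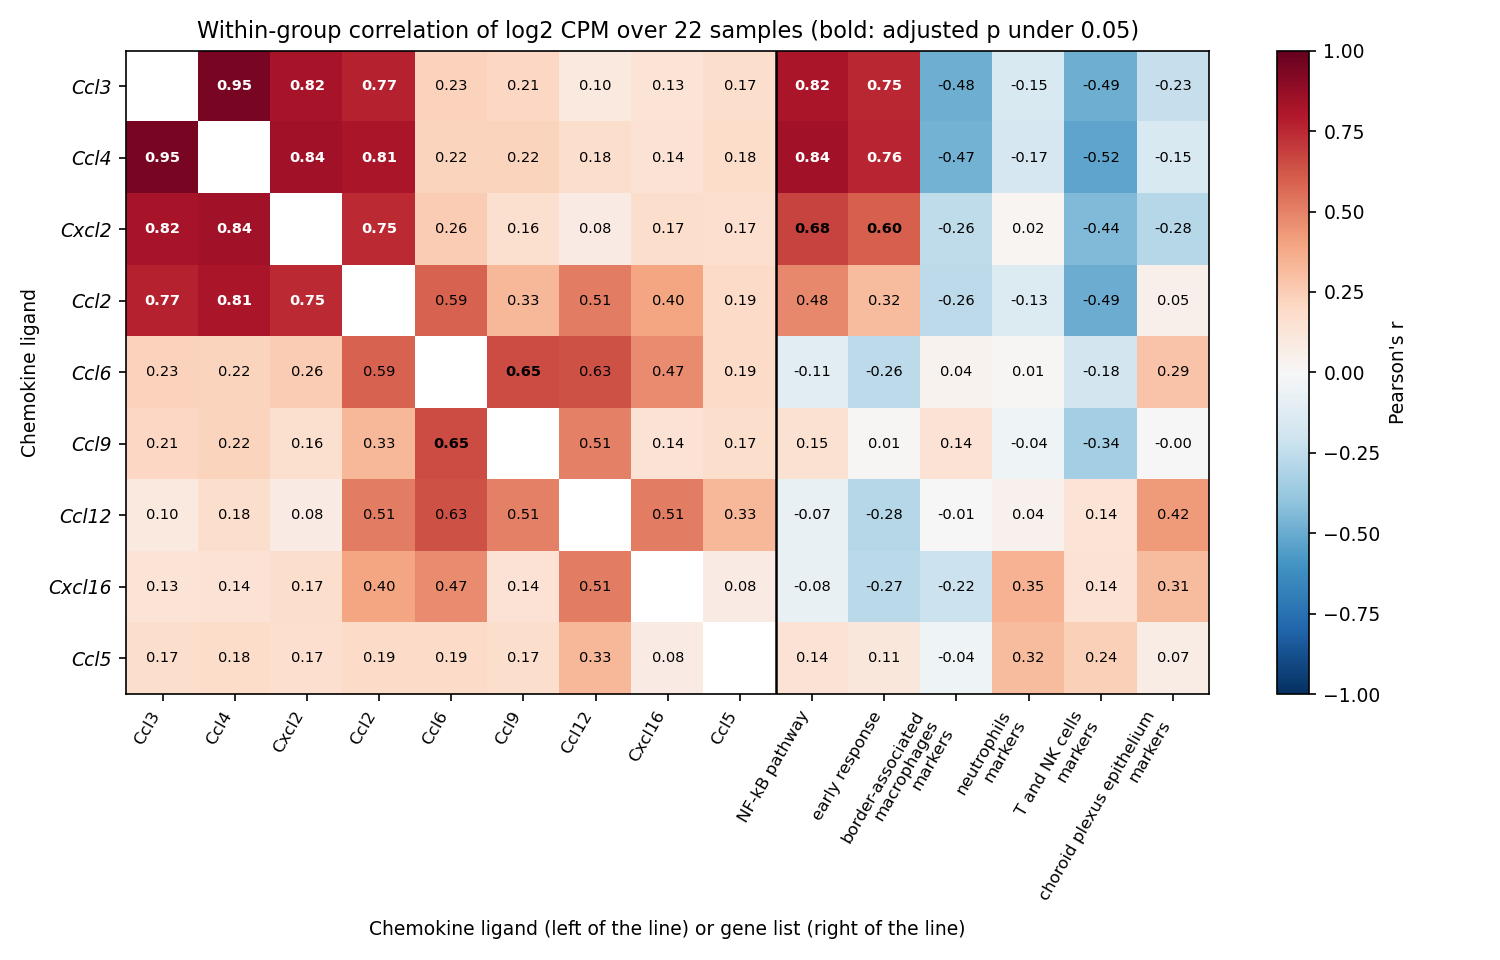
Pearson's r of within-group deviations of log2 CPM over 22 samples, for the 9 ligands among themselves and with 6 gene lists, with bold values for an adjusted permutation p under 0.05. The pairs among *Ccl2*, *Ccl3*, *Ccl4* and *Cxcl2* have r from 0.75 to 0.95, and *Ccl6* with *Ccl9* has 0.65.

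The summed level of the 18 early response genes overlapped between the genotypes. It ran from 7646 to 18370 CPM in Control WT and 9541 to 17397 CPM in Control *APP/PS1*, with 0 of 18 called, and in Slc11a2KD mice from 7259 to 15720 CPM (WT) and from 8466 to 14596 CPM (*APP/PS1*), with *Ier2* (log2 fold change 0.74, adjusted p = 0.0350) and *Ier3* (0.86, adjusted p = 0.00611) higher and 0 lower. The list medians were 0.03 in Control mice, with 11 of 18 above 0, and -0.28 in Slc11a2KD mice, with 6 of 18 above 0, against -0.02 and -0.07 for all genes, so the 2 calls ran opposite to most of the list. Of the 18 NF-kB genes, 1 was higher in Control *APP/PS1*, the kinase gene *Ikbkb* (log2 fold change 0.57, adjusted p = 0.00993). In the Slc11a2KD comparison 3 were higher, *Ikbkb* (0.47, adjusted p = 0.0450) and the cytokines *Tnf* (1.05, adjusted p = 0.0483) and *Il1b* (2.34, adjusted p = 0.0306), and 2 were lower, *Nfkb1* (-0.66, adjusted p = 0.0155) and *Chuk* (-0.46, adjusted p = 0.0231). The NF-kB list medians were 0.17 and -0.01 on the log2 scale, with 13 and 9 of 18 above 0.

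The genes whose within-group pattern was most like each ligand were ranked by r over the 22 samples among 9384 genes with a mean of at least 5 CPM. For *Ccl4* these were *Il1b* (0.96), *Maff* (0.95) and *Il1a* (0.93), for *Ccl3* *Maff* (0.91), *Il1a* (0.91) and *Il1b* (0.90), and for *Cxcl2* *Il1b* (0.87), *Pim3* (0.85) and *Csrnp1* (0.85). *Il1a* and *Il1b* encode interleukin-1 cytokines, and *Il1b* was among the first 3 for each of these ligands. For *Ccl6* the first were *H2-T23* (0.88), *Cryl1* (0.85) and *Gmfg* (0.85), and for *Cxcl16* *Lgals3* (0.84), *Glipr1* (0.82) and *Tm7sf2* (0.82). For *Ccl2* they were *Qtrt1* (0.86), *Cdk2* (0.85) and *Rpp40* (0.84), for *Ccl12* *Edem2* (0.87), *Cd81* (0.87) and *Trmt10a* (0.83), for *Ccl9* *Acadl* (0.74), *Gltp* (0.72) and *Mymk* (0.72), and for *Ccl5* *Rhbdd3* (0.73), *Fbxw5* (0.73) and *Uros* (0.70). These are the highest of many correlations that share libraries, and they are given as a description.

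Among the other chemokine ligands, 19 of 28 listed were measured, and the direction was mixed. In Control *APP/PS1*, 1 was higher, *Cxcl14* (medians of 4.28 and 62.9 CPM, log2 fold change 3.35, adjusted p = 0.000883). The 5 lower ones were *Ccl7* (-1.74, adjusted p = 0.0215), *Ccl24* (-1.49), *Cxcl12* (-1.57), *Cx3cl1* (-2.14) and *Pf4* (-1.80), the last a marker of border-associated macrophages. The list median in Control mice was -0.88, with 7 of 19 above 0, against 0.77 for the 9 ligands described here. For Slc11a2KD mice it was 0.32, with 11 of 19 above 0, against 1.45 for the 9 ligands. In Slc11a2KD mice *Cxcl14* (3.34, adjusted p = 0.00210) and *Cxcl1* (2.45, adjusted p = 0.0435), a *Cxcr2* ligand like *Cxcl2*, were higher and *Ccl24* (-0.75) and *Cx3cl1* (-1.60) were lower. The *Cxcl1* medians were 4.97 CPM in Slc11a2KD WT and 5.80 CPM in Slc11a2KD *APP/PS1*, much closer together than its fold change, so the call does not show a rise across the group. None of the 19 passed for the knockdown or the interaction.

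Of the receptors, 8 of 10 listed were measured and 1 passed a test. *Ccr2* was lower in Control *APP/PS1* (medians of 8.98 and 4.59 CPM, log2 fold change -1.27, adjusted p = 0.0437), and in Slc11a2KD mice it was -0.87 (adjusted p = 0.171). *Ccr1* had medians of 14.2, 12.96, 31.1 and 22.8 CPM in the Control groups, WT first, and then in the Slc11a2KD groups, and *Cxcr2* did not pass 3.80 CPM. *Ccr1*, *Cxcr2* and *Cxcr6* were not called in either genotype comparison.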

How the data were processed

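The authors trimmed reads with Trim Galore 0.6.7, aligned them with STAR to mm39 with GENCODE models and deposited 2 tables. The counts used here are whole numbers of reads per gene that the authors did not normalize. Their normalized table was not used, and the strand setting of the counting is not given in the sources used here. Of 23 samples, 22 entered the fits, without Control *APP/PS1* 0010, taken as the sample the study removed as an outlier because its heat map lacks it. The study calls its samples biological replicates.

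A gene was tested if 3 or more samples had 5 or more counts (18759 genes, all 9 ligands included) with edgeR 4.0.16 in R 4.3.3, with TMM scaling and all 4 groups in 1 quasi-likelihood fit. Benjamini-Hochberg adjustment ran over all genes tested, with 0.05 as the threshold, and SE values are the fold change over the root of the F statistic. Alternatives used DESeq2 1.42.0 and limma 3.58.1. Correlations used Python 3.11.15. Intervals and values cover these samples at a depth of 31128643 to 54872491 counts. Named genes were the 9 ligands, members of the gene lists that passed a test, and the 3 genes most like each ligand. Receptors that did not pass and genes overlapping *Ccl3* or *Cxcl16* were named outside that rule. The tests were also run on simulated counts drawn without library runs or outlying samples, and that check does not cover these. The ligands and lists were chosen with earlier results of these data known. Some listed items are not reported here.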

Additional observations from a re-analysis of the deposited data

Results flagged for a closer look

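*Cxcl16* in Control WT was set apart by 1 sample. Library 0014 had 151 CPM against 68.7 to 84.2 CPM in the other 5, so that its gap to the nearest sample was 0.813 of the group's whole range, above Dixon's critical value of 0.625 for 6 samples. Of 36 ligand and group combinations tested this was the 1 beyond its critical value, and chance gives about 1 in 20. Without 0014 the log2 fold change of *Cxcl16* in Control *APP/PS1* was 1.31.

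The library that was left out, Control *APP/PS1* 0010, had 5 ligands above every Control WT sample. These were *Ccl3* (437 CPM), *Ccl6* (1312 CPM), *Ccl12* (101.9 CPM), *Cxcl2* (116 CPM) and *Cxcl16* (228 CPM), with its CPM scaled over 23 samples. Its *Ccl12* value was also above that of every sample used. How many of all genes lay above every Control WT sample in 0010 was not counted, so the 5 ligands have no background share beside them.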

How the results depend on the processing

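*Ccl6* and *Cxcl16* passed in both genotype comparisons under every alternative run. *Ccl6* ran from 1.34 to 1.79 in Control and 1.98 to 2.45 in Slc11a2KD mice, and *Cxcl16* from 1.02 to 1.31 and 1.22 to 1.64. Of 1035 alternative fold changes of the 9 ligands, over the 5 comparisons of groups and not those between or within library runs, 25 lost the call, 6 gained it and 1004 kept their side of the threshold, 48 of them with a change of sign while uncalled. Among alternative correlations, 6 gained the call and 264 kept their side. *Cxcl2* in Control mice was also lost with DESeq2 size factors (adjusted p = 0.0623) and without Control WT 0012 and 0015 (adjusted p = 0.151), and in Slc11a2KD mice with limma's voom fit (1.21, adjusted p = 0.0726). *Ccl4* in Slc11a2KD mice passed when each sample had to hold 10 counts of a gene (adjusted p = 0.0426) and without 0012 and 0015 (adjusted p = 0.0420). The cause was not tested.

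The ligands called in the Control comparison, 5 as reported, were 2 to 4 when 1 sample was left out, with 3 without 0005, 0008, 0009, 0011, 0013 or 0015 and 2 without 0006 or 0016. Genes called there were 1965 as reported, 3421 with voom, 918 with a log2 fold change beyond 1 as well, 3241 with only the compared groups in the fit, 1282 without 0012 and 0015, and 1561 to 1969 with 1 sample left out. For Slc11a2KD mice they were 3034 as reported, 1105 beyond a log2 fold change of 1, 1041 with the compared groups only, 1773 with the run as a term, and 1977 to 4781 with 1 sample left out, the lowest 3 of these without 0002, 0003 or 0021 and the highest without 0004. For Slc11a2KD WT against Control WT, 0 genes became 10 with DESeq2, 1 with voom and 0 to 1 with 1 sample left out (1 without 0002, 0012 or 0022). For Slc11a2KD *APP/PS1* against Control *APP/PS1*, 0 became 580 with DESeq2, 2 with voom and 0 to 3069 with 1 sample left out, the last without 0004. For the interaction, 0 became 25 with DESeq2, 1 with voom and 0 to 1 with 1 sample left out (1 without 0002). No paired analysis was possible because no 2 groups share a library number.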
